A study of Mus musculus with 4 samples.

Results

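Integrins are cell surface receptors made of one alpha and one beta chain, and the 9 genes described here encode 6 alpha chains (Itgax, Itgam, Itgal, Itgae, Itga4 and Itgav) and 3 beta chains (Itgb2, Itgb7 and Itgb1). They were taken by symbol from the 22631 gene rows that both deposited matrices share, and all 9 had a row and at least 1 unique molecular identifier (UMI) in each capture. Levels were followed across marker-gated dendritic cell (DC) types, reporter populations and treatments. The rule itself uses no measured value.

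Only set pairs of chains form a receptor. Itgb2 (CD18) joins Itgal to form LFA-1, Itgam (CD11b) to form Mac-1 and Itgax (CD11c) to form complement receptor 4, and these leukocyte integrins bind ICAM molecules and complement fragments. Itga4 joins Itgb1 to bind VCAM-1 and fibronectin or Itgb7 to bind MAdCAM-1. Itgae (CD103) joins Itgb7 to bind E-cadherin, and Itgav joins several beta chains, among them Itgb8, to bind matrix proteins and to activate latent TGF-beta. Skin DCs that have matured move to the draining lymph node along CCR7 ligands, and in mice they can reach the node without functional integrins.

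The mice carried 1 knock-in allele of Tnfsf4, the gene of OX40L, and were labelled Tnfsf4KI/+, so that cells using the gene also make blue fluorescent protein (BFP); all 4 populations shared this genotype. In the MC903 group the ears received MC903, a vitamin D analogue that induces TSLP in skin, on days 0, 2 and 4; the ears of the other group were untreated. On day 5 migratory DCs were sorted from the ear-draining lymph nodes as B220- CD11c int MHCII hi cells, with 5000 BFP+ and 7000 BFP- cells per treatment, and each population was marked by its own hashtag antibody. The MC903 BFP+ and BFP- cells made 1 capture and the untreated BFP+ and BFP- cells the other, on different sequencing lanes, so treatment, capture and lane cannot be told apart. The ages and sexes of the mice and how many were pooled were not stated in the labels. CD11c, the product of Itgax, was part of the sort, so every Itgax value below describes cells already selected on that protein.

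A barcode was kept if it had 500 or more genes and no more than 10% of its UMIs from mitochondrial genes, and barcodes with markers of another lineage were set aside. This left 4748 DCs of 5636 kept barcodes in the MC903 capture and 6465 of 8422 in the untreated capture. Their median depth was 9846 UMIs in MC903 DCs and 2670 in untreated DCs. The MC903 capture held 1433 BFP+ and 3187 BFP- DCs, and the untreated capture held 459 BFP+ and 4415 BFP- DCs. A dominant hashtag was lacking in 2.70% of MC903 DCs and in 24.6% of untreated DCs. The reporter transcript was at 107 CPM (counts of UMIs scaled to a sum of 1e+06) in MC903 BFP+ DCs against 10.3 CPM in MC903 BFP- DCs, and at 79.0 CPM in BFP+ DCs of the untreated capture against 6.66 CPM in BFP- DCs of the untreated capture. It reached 60.1 CPM in the untreated DCs that lacked a dominant hashtag, between the levels of the untreated populations. The captures shared 21 kept barcodes.

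Itgam, Itgax and Itgal lie on chromosome 7 of GRCm38. Itgam (ENSMUSG00000030786, chr7:128062640-128118491) and Itgax (ENSMUSG00000030789, chr7:128129547-128150657) run in the same direction and are 11055 bases apart, and Itgal (ENSMUSG00000030830, chr7:127296260-127335138) lies on the same strand. Itgb2 is at chr10:77530252-77565708, Itgae at chr11:73090583-73147446, Itgb7 on the minus strand at chr15:102215995-102231944 and Itgb1 at chr8:128685654-128733200. Itga4 (chr2:79255426-79333123) and Itgav (chr2:83724397-83806916) share chromosome 2. Itgam overlaps Gm49368 on its own strand, and its counts are uncertain for that reason. Itgae overlaps Haspin, Itga4 overlaps Cerkl, and Itgav overlaps Gm13684 and Dnmt3l-ps1, each on the opposite strand, and the sources used here do not give the strand setting of the counting.

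RefSeq promoter sequences (GRCm38.p6, 250 bases upstream of the start) were matched by symbol for 6 of the 9 genes, all but Itgal, Itgb2 and Itgae. They were searched on both strands for GAGGAA, a core that the ETS factor PU.1 of myeloid cells can bind, and for TGTGGT, a core of RUNX factors; the motifs do not overlap each other. The 4 shown are those of the neighbouring pair Itgam and Itgax, of Itgb7, whose levels varied with those of Itgax, and of Itga4, whose levels varied the opposite way. Capitals mark GAGGAA or its reverse complement, and each sequence reads 5′ to 3′ on its gene's strand.
Itgax, chr7:128129300-128129549, plus strand: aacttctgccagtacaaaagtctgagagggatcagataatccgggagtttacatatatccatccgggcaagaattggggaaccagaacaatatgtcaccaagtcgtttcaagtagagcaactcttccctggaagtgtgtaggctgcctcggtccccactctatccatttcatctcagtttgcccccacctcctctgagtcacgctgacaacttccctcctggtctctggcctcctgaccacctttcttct
Itgam, chr7:128062390-128062639, plus strand: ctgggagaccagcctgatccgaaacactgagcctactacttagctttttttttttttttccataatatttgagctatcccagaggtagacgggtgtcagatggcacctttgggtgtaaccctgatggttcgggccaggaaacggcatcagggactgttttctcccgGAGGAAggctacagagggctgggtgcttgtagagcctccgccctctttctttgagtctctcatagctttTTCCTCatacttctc
Itgb7, chr15:102231936-102232185, minus strand: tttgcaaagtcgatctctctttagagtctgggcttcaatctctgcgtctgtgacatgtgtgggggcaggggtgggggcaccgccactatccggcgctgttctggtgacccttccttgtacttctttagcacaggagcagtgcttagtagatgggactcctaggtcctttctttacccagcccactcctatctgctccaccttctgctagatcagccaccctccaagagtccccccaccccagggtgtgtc
Itga4, chr2:79255176-79255425, plus strand: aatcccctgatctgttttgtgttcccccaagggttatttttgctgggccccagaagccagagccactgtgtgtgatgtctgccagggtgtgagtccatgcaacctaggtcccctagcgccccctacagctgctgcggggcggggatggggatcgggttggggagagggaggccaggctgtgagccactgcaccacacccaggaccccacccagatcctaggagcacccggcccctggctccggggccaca
GAGGAA stood 2 times in the Itgam window, 2 times in that of Itgav and 1 time in that of Itgb1, and not in those of Itgax, Itgb7 and Itga4. That is 3 of 6 windows, where 23.3% of the 32851 promoters in the table hold a match. TGTGGT stood 1 time, in the Itga4 window, and 14.0% of all promoters hold it. Itgax and its neighbour Itgam therefore differ in these letters; a match is a description of the sequence and not a site.

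Across all DCs the chains were counted to very different precision. The counts are tags from the 3′ end and are not scaled by length, so each gene is compared between groups and not with another gene. Itga4 had 369 CPM in MC903 DCs and 261 CPM in untreated DCs. It was seen in 4217 of 4748 MC903 DCs and in 3183 of 6465 untreated DCs. Itgb1, its partner, had 247 CPM in MC903 DCs and 262 CPM in untreated DCs. Both chains were thus well counted in each capture, and Itga4 alone of the pair stood higher in MC903 DCs. Itgav had 26.7 and 21.4 CPM, Itgb7 had 11.1 and 21.3 CPM and Itgb2 had 8.37 and 20.1 CPM in MC903 and untreated DCs. Itgax had 7.54 CPM in MC903 DCs and 27.5 CPM in untreated DCs and was seen in 246 and 522 barcodes. Itgal (0.935 and 8.20 CPM), Itgae (0.477 and 2.63 CPM) and Itgam (0.676 and 1.75 CPM) were sparsely counted in both captures. Itgam, the CD11b chain by which DC subsets are commonly sorted, was seen in only 29 MC903 DCs and 40 untreated DCs.

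DC types were set by gates on marker lists and are named by their leading genes. Among other genes, the Epcam/Cd207 list also held Mfge8, Cldn1 and Cdh1, the Xcr1/Clec9a list Cadm1, Tlr3, Gcsam, Snx22 and Naaa, the Apol10b/Laptm4b list Smagp, Asprv1 and Dnase1l3, and the Cd209a/Mgl2 list Clec10a, Sirpa and Clec4a4. The Epcam/Cd207 gate held 141 MC903 and 256 untreated DCs, the Xcr1/Clec9a gate 6 and 65, the Apol10b/Laptm4b gate 387 and 295, and the Cd209a/Mgl2 gate 46 and 155. Most DCs passed no gate: 4137 in the MC903 capture and 5630 in the untreated capture, 87.1% of DCs in each. Genes outside the gates were used as a check. The cDC1 checks were Irf8, Batf3, Wdfy4 and Cd24a, and the cDC2 checks Irf4, Klf4, Cd7 and Tmem176a. The Langerhans cell checks were Tgfbr1, Krt5, Cd24a and Serpinb6a. Values are given here for only some of them, so they do not establish which cells a gate holds. In untreated DCs Irf8, a cDC1 factor, was at 981 CPM under the Xcr1/Clec9a gate and 470.3 CPM under the Apol10b/Laptm4b gate, against 245 CPM in ungated DCs. Klf4, a cDC2 factor, was at 344 CPM under the Cd209a/Mgl2 gate, against 92.4 CPM in ungated DCs. Wdfy4, a cDC1 gene, was at 457 CPM under the Xcr1/Clec9a gate but also at 186 CPM under the Cd209a/Mgl2 gate, against 15.1 CPM in ungated DCs, so the Cd209a/Mgl2 gate does not hold a pure cDC2 profile. Serpinb6a was at 100.5 CPM under the Epcam/Cd207 gate, against 30.4 CPM in ungated DCs.

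The gated types also differed in maturation genes. Ccr7, the chemokine receptor of migrating DCs, was at 855 CPM under the Cd209a/Mgl2 gate and 1100 CPM under the Xcr1/Clec9a gate, against 2537 CPM in ungated untreated DCs. Fscn1, which bundles actin in mature DCs, was at 888 and 567 CPM under these gates, against 1949 CPM in ungated untreated DCs. In MC903 DCs the Cd209a/Mgl2 gate held 1083 CPM of Ccr7 and 1181 CPM of Fscn1, against 2727 and 2453 CPM in ungated DCs. The part of maturation in the type values that follow was not tested. Ungated DCs are split by Ccr7 and Fscn1 further on.

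**Figure D1:**
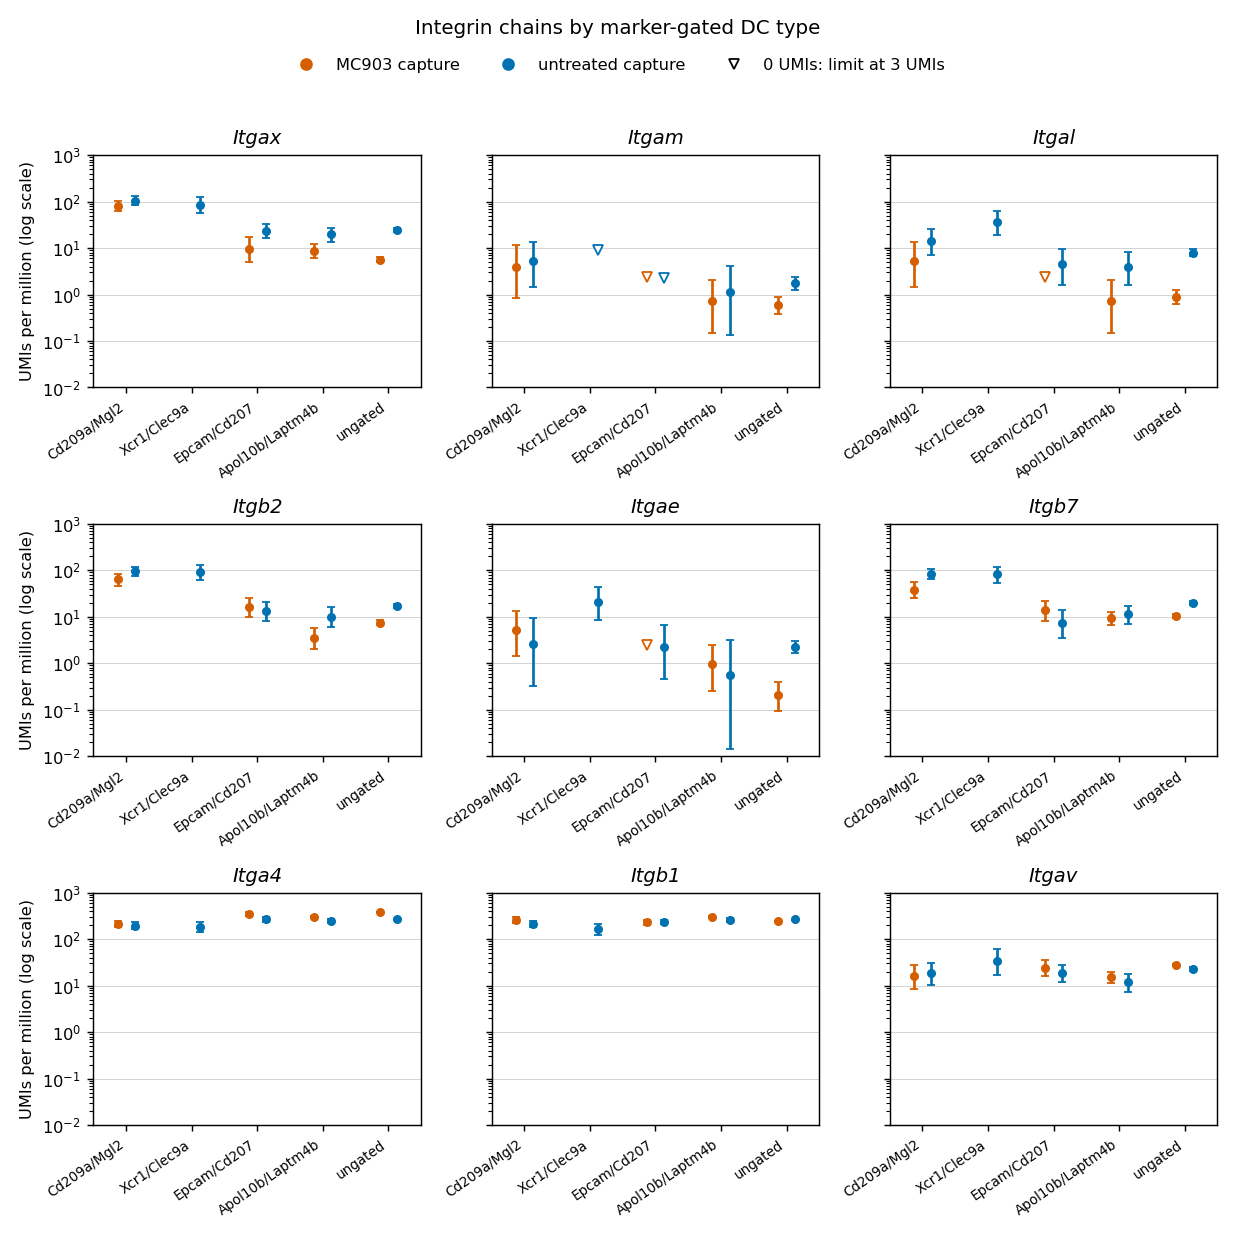
Level of each integrin chain (CPM, log scale) by marker-gated DC type in the MC903 capture (orange) and the untreated capture (blue); points are summed levels, bars are exact 95% Poisson intervals and open triangles give the limit of 3 UMIs where none was found. Groups under 30 barcodes are not drawn. Itgax, Itgb2 and Itgb7 stand highest under the Cd209a/Mgl2 and Xcr1/Clec9a gates, while Itgb1 runs from 164 to 299 CPM.

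Itgax, Itgb2 and Itgb7 were higher under the Cd209a/Mgl2 gate than in the other DCs, in both captures. All ratios here compare summed UMIs; a gene is called apart where the sums differ at least 1.5-fold and the higher one reaches 20 CPM, and the brackets hold exact 95% intervals that cover counting error only. There is 1 pool per population, so no difference has a replicate check and none was given a p-value. Some chains reach 20 CPM only in the group where they are high, so counts of chains apart describe those that passed and are no support for a direction.

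In untreated DCs Itgax had 106 CPM under the Cd209a/Mgl2 gate against 25.1 CPM in the other DCs, a log2 ratio of 2.07 (1.72 to 2.41). Its 80 UMIs came from 43 of 155 barcodes, at most 6 from 1 barcode. Itgb2, the partner of Itgax, had 72 UMIs under the gate and stood 5.36-fold above the 17.7 CPM of the other DCs, a log2 ratio of 2.42 (2.04 to 2.78). The 2 chains of complement receptor 4 were thus both about 4- to 5-fold higher. Itgb7 had 84.4 CPM against 19.3 CPM, a log2 ratio of 2.13 (1.73 to 2.51), with 12 of its 64 UMIs in 1 barcode. Itga4 had 195 CPM against 263 CPM and was not apart, with a log2 ratio of -0.43 (-0.67 to -0.19). Of the 6 chains measured, that is with 20 CPM in the higher sum, 3 were higher and 0 lower; 22.5% of all genes measured were called higher under this gate and 16.6% lower.

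In MC903 DCs the same chains were higher under this gate, and the gap was wider for Itgax. Itgax had 81.4 CPM under the Cd209a/Mgl2 gate against 6.42 CPM in the other DCs, a log2 ratio of 3.66 (3.24 to 4.06). Itgb2 had 64.0 CPM against 7.53 CPM, a log2 ratio of 3.09 (2.62 to 3.52). Itgb7 had 38.7 CPM against 10.7 CPM, a log2 ratio of 1.86 (1.26 to 2.40). Itga4 went the other way: it had 215 CPM against 371 CPM, a log2 ratio of -0.79 (-1.02 to -0.57). Itgav was also called lower, at 16.0 CPM against 26.8 CPM, on 12 UMIs and with an interval that reaches 0 (-1.70 to 0.06). The counts were 3 higher and 2 lower of 6 measured, where 24.3% of all genes were called higher and 18% lower. These 46 barcodes were deep, with a median of 16072.5 UMIs against 9765 in ungated MC903 DCs.

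Shares of barcodes with a UMI were compared after each was thinned to 2000 UMIs. Itgax was then seen in 10.9% of Cd209a/Mgl2-gated MC903 DCs against 1.25% of ungated ones, and in 39.1% and 4.57% before thinning. In untreated DCs it was seen in 14.6% of Cd209a/Mgl2-gated barcodes against 4.34% of ungated ones, and in 27.7% and 7.09% before thinning; 32 and 1136 shallower barcodes were left out. The difference by type thus remained at equal depth. Itgax was also counted in barcodes of other lineages. The barcodes that passed the B gate and no other held 1 Itgax UMI over 81 barcodes in the MC903 capture and 0 over 74 in the untreated capture. B-gated barcodes had medians of 3087 and 1936 UMIs, so these low counts are a weak check. At 2000 UMIs Itgax was seen in 2.11% of T, NK and ILC barcodes in the MC903 capture (4 of 190). In the untreated capture it was seen in 1.22% of them (1 of 82).

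Under the Xcr1/Clec9a gate the untreated DCs were higher in Itgax, Itgal, Itgb2, Itgb7 and Itgae. Itgax had 85.3 CPM under the gate against 26.7 CPM in the other DCs, a log2 ratio of 1.67 (1.07 to 2.22). Itgal, the alpha chain of LFA-1, had 36.6 CPM against 7.83 CPM, a log2 ratio of 2.22 (1.25 to 3.06). That value rests on 12 UMIs in 6 barcodes, 5 of them in 1 barcode. Itgb2 had 91.4 CPM against 19.1 CPM, a log2 ratio of 2.26 (1.67 to 2.79), with 9 of its 30 UMIs in 1 barcode. Itgb7 had 82.2 CPM against 20.5 CPM, a log2 ratio of 2.01 (1.39 to 2.57). Itgae, whose product CD103 marks cDC1s of skin and gut, had 21.3 CPM against 2.38 CPM, a log2 ratio of 3.16 (1.79 to 4.30) on 7 UMIs, and it reached 20 CPM only under the gate. In MC903 DCs under the Cd209a/Mgl2 gate Itgae had 5.34 CPM against 0.404 CPM, a log2 ratio of 3.72 (1.72 to 5.30) on 4 UMIs.

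Itgav was called higher under the same gate at 33.5 CPM against 21.3 CPM, but on 11 UMIs and with an interval of -0.35 to 1.51 on the log2 scale. Itgb1 was lower, at 164 CPM against 263 CPM, a log2 ratio of -0.68 (-1.09 to -0.29). Of 8 chains measured 6 were higher and 1 lower, where 18.6% of all genes were called higher and 29.1% lower; Itgal, Itgae and Itgb2 reached 20 CPM only under the gate, so nothing is read from that count. The 6 barcodes of this gate in the MC903 capture held 8 UMIs of Itgax, 7 of Itgb2 and 15 of Itgb7, and are too few to compare.

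The other gates held no higher chain. Under the Epcam/Cd207 gate untreated DCs had 7.45 CPM of Itgb7 against 22.0 CPM in the other DCs, a log2 ratio of -1.57 (-2.63 to -0.68). Itgb2 was called lower there with an interval that reaches 0, at 13.4 CPM against 20.4 CPM (-1.38 to 0.07). Of 6 measured 0 were higher and 2 lower, where 8.52% of all genes were called higher and 4.79% lower. In MC903 DCs none of 3 measured chains was apart under this gate, where 10.7% of all genes were called higher and 5.77% lower, and Itgb2 ran the other way at 16.2 CPM against 8.17 CPM.

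Under the Apol10b/Laptm4b gate untreated DCs were lower in Itgb2 (10.1 CPM against 20.8 CPM), in Itgb7 (11.3 CPM against 22.0 CPM) and in Itgav (11.8 CPM against 22.2 CPM). Their log2 ratios were -1.04 (-1.81 to -0.36), -0.97 (-1.69 to -0.33) and -0.91 (-1.61 to -0.28). That is 0 higher and 3 lower of 6 measured, where 5.48% of all genes were called higher and 6.81% lower. Itgav was lower in the MC903 capture too, at 15.1 CPM against 27.7 CPM, a log2 ratio of -0.88 (-1.26 to -0.51), as the only chain apart of 3 measured, where 9.68% of all genes were called higher and 9.58% lower. In untreated DCs the Xcr1/Clec9a and Apol10b/Laptm4b gates therefore stood on opposite sides of the other DCs for Itgb2 and Itgb7. The Apol10b/Laptm4b list was taken from earlier results of these data, so it is not an independent cDC1 list.

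The order of types was not resolved for every chain. In untreated DCs the Cd209a/Mgl2 and Xcr1/Clec9a gates stood next to each other at the top for Itgax, Itgb2 and Itgb7, with overlapping intervals. For Itgam, Itgal, Itgae, Itga4, Itgb1 and Itgav all 4 neighbouring pairs of the 5 types overlapped. In MC903 DCs, with 4 types, none of the 3 neighbouring pairs overlapped for Itgb2. For Itga4 1 of 3 pairs overlapped, with ungated DCs highest at 380.5 CPM and the Cd209a/Mgl2 gate lowest at 215 CPM.

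Transcripts of other lineages were present in the gated types. In untreated DCs the B cell list (8 markers) summed to 79.2 CPM under the Xcr1/Clec9a gate, with Fcmr at 0, against 96.1 CPM in ungated DCs. The T, NK and ILC list (12 markers) summed to 215 CPM under the Cd209a/Mgl2 gate, with Ncr1 and Klrb1c at 0, and to 94.4 CPM under the Xcr1/Clec9a gate, with Lck, Ncr1, Klrb1c and Prf1 at 0, against 221 CPM in ungated DCs. The monocyte list (7 markers) summed to 58.1 CPM under the Cd209a/Mgl2 gate, with Fcgr1 at 0, and to 15.2 CPM under the Xcr1/Clec9a gate, with C1qa, C1qb, C1qc and Fcgr1 at 0, against 41.2 CPM. Barcodes gated as T, NK or ILC had 143 CPM of Itgb2 and 259 CPM of Itgb7 in the untreated capture. In MC903 DCs under the Cd209a/Mgl2 gate the B cell list summed to 41.4 CPM with all 8 detected, against 21.7 CPM in ungated DCs, and the T, NK and ILC list to 211 CPM, with Cd3e, Cd3g, Lck, Ncr1, Klrb1c, Gzma and Prf1 at 0, against 197 CPM. The part of these transcripts in the Itgb2 and Itgb7 values under the Cd209a/Mgl2 and Xcr1/Clec9a gates was not tested.

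Levels also varied with the share of Ccr7 and Fscn1 within each capture. DCs were split into terciles of the UMIs that these 2 genes took together, a split added after the data had been seen; the cut points were 3859 and 5888 CPM in the MC903 capture and 3051 and 5045 CPM in the untreated capture. In untreated DCs Itgax was at 45.7, 18.0 and 20.3 CPM in the low, middle and high tercile. Itgb2 was at 37.1, 13.4 and 11.2 CPM and Itgb7 at 37.1, 18.4 and 9.98 CPM. Itga4 ran the other way, at 188, 248.7 and 336 CPM. The low tercile was thus highest in the leukocyte chains and lowest in Itga4. Itgb1 moved less, at 231, 269 and 283 CPM.

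Set as the low over the high tercile, the untreated log2 ratios were 1.17 (0.91 to 1.44) for Itgax, 1.73 (1.39 to 2.07) for Itgb2, 1.89 (1.55 to 2.25) for Itgb7 and -0.84 (-0.93 to -0.75) for Itga4. Of 6 chains measured 3 were higher and 1 lower, where 7.3% of all genes were called higher and 4.93% lower. In ungated DCs alone the 4 calls held: Itgax had 37.5 CPM in the low tercile against 20.2 CPM in the high one, Itgb2 27.04 against 12.5 CPM, Itgb7 30.9 against 11.0 CPM and Itga4 185 against 342 CPM. Of the 6 measured there, 3 were higher and 1 lower, where 5.84% of all genes were called higher and 4.79% lower. In the untreated capture the gradient was therefore present among DCs that passed no type gate. Such DCs can include cells of these types. A gate needed at least 3 UMIs, and ungated untreated DCs had a median of only 2571 UMIs. Somewhat below the share needed stood 587 untreated DCs for the Cd209a/Mgl2 gate and 333 for the Xcr1/Clec9a gate. From that share to 2 times that share stood 319 and 129, while only 179 and 74 passed these gates at any share. All these counts include DCs that passed another gate. The B cell list ran along with the gradient, at 110, 85.8 and 72.2 CPM in the low, middle and high tercile. So did the T, NK and ILC list, at 225, 219 and 194 CPM. The part of both lists in the gradient was not tested.

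In MC903 DCs the Itga4 gradient had the same direction and size. Itga4 was at 268, 368 and 466 CPM in the low, middle and high tercile, and its low over high log2 ratio was -0.80 (-0.85 to -0.74). Itgav was at 18.8, 29.9 and 30.7 CPM, a low over high log2 ratio of -0.71 (-0.92 to -0.50). Both chains were called lower in the low tercile, 2 of 3 measured, where 8.06% of all genes were called lower and 3.26% higher. Itgax was at 13.3, 4.90 and 4.90 CPM, Itgb2 at 12.0, 6.12 and 7.32 CPM and Itgb7 at 13.4, 12.3 and 7.56 CPM, all under 20 CPM in this capture. In ungated MC903 DCs Itga4 and Itgav were again lower, with log2 ratios of -0.77 (-0.83 to -0.71) and -0.68 (-0.91 to -0.46), out of 3 measured, where 3.03% of all genes were called higher and 8.35% lower. The leukocyte chains had smaller ratios there: Itgax had a low over high log2 ratio of 1.44 (1.07 to 1.83) in all MC903 DCs and 0.61 (0.17 to 1.07) in ungated ones. For Itgb2 it was 0.72 (0.38 to 1.06) in all MC903 DCs and 0.23 (-0.15 to 0.62) in ungated ones, and for Itgb7 0.83 (0.50 to 1.16) and 0.59 (0.21 to 0.97).

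**Figure D2:**
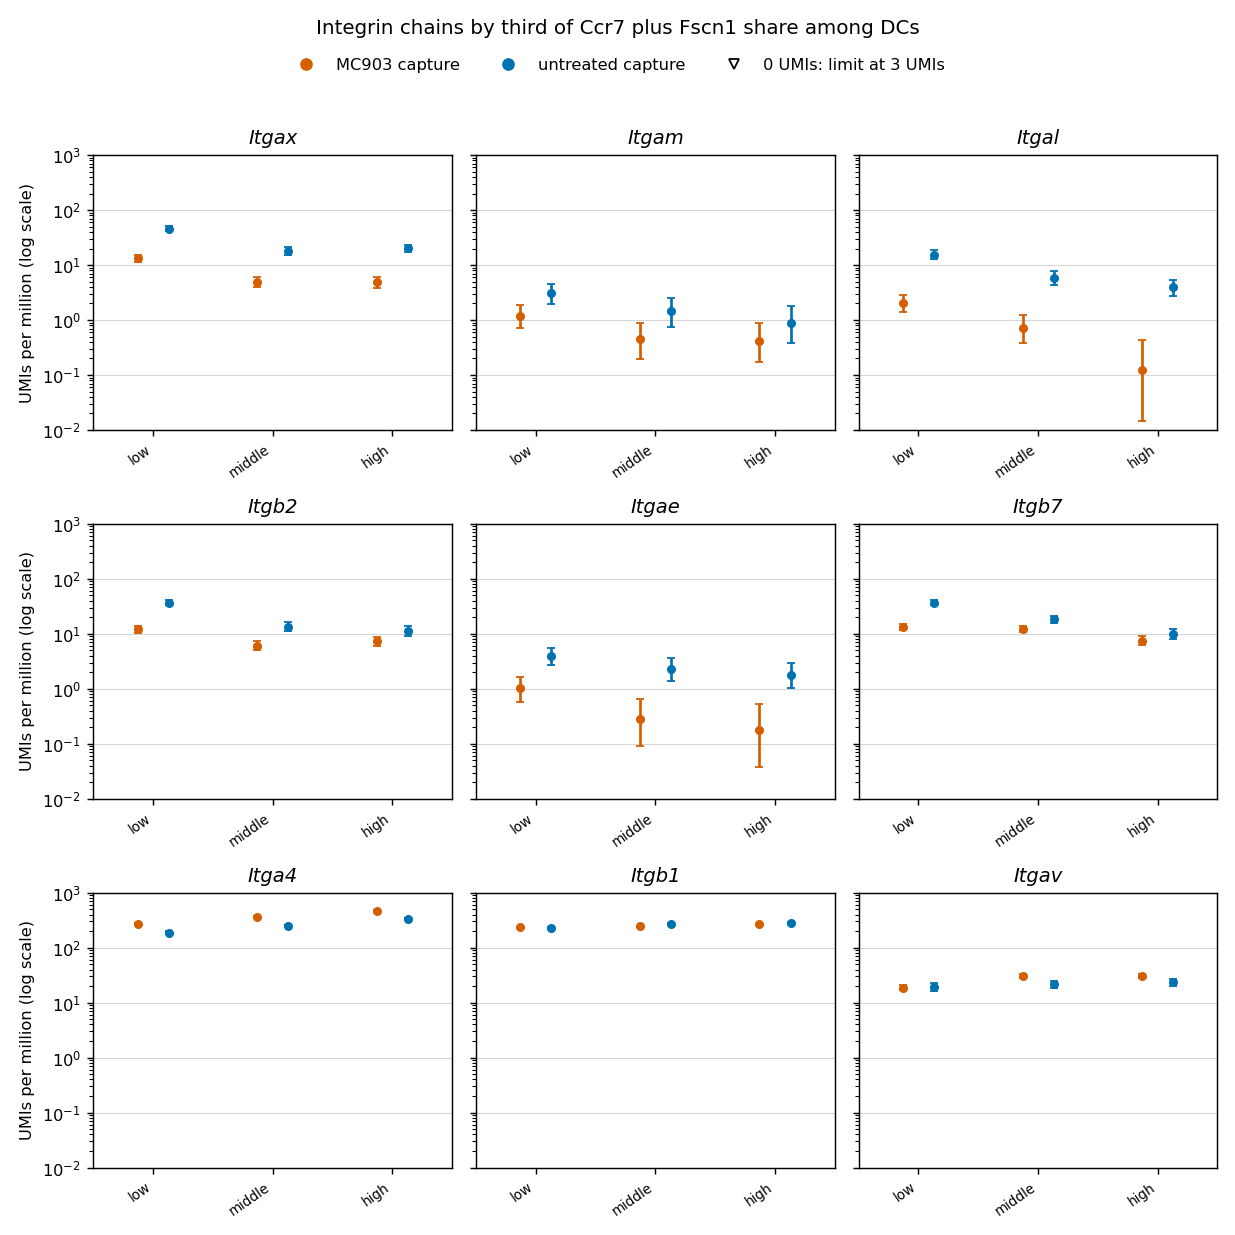
Level of each integrin chain (CPM, log scale) in the low, middle and high tercile of the Ccr7 plus Fscn1 share, in MC903 DCs (orange) and untreated DCs (blue), with exact 95% Poisson intervals. Itga4 climbs across the terciles in both captures, and Itgax, Itgb2 and Itgb7 of the untreated capture are highest in the low tercile.

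The reporter comparison set BFP+ against BFP- DCs of the same capture, the question being how DCs that express OX40L differ from those that do not. In the untreated capture Itgax and Itgb2 were lower in BFP+ DCs, and Itga4 and Itgb1 were slightly higher without being apart. Itgax had 13.6 CPM in BFP+ DCs and 31.3 CPM in BFP- DCs, a log2 ratio of -1.20 (-1.69 to -0.75). Itgb2 had 13.3 CPM in BFP+ DCs and 21.2 CPM in BFP- DCs, a log2 ratio of -0.67 (-1.18 to -0.21). These 2 partners were the only members called, 0 higher and 2 lower of 6 measured, where 3.04% of all genes were called higher and 4.32% lower.

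Itgb7 had 13.9 CPM in BFP+ DCs of the untreated capture and 20.4 CPM in BFP- DCs of the untreated capture, a log2 ratio of -0.55 (-1.05 to -0.09) that stayed short of 1.5-fold. Itga4 had 313 CPM in BFP+ DCs and 256 CPM in BFP- DCs, a log2 ratio of 0.29 (0.19 to 0.39). Itgb1 had 292 CPM in BFP+ DCs and 256 CPM in BFP- DCs, a log2 ratio of 0.19 (0.08 to 0.29). Itgav had 26.6 CPM in BFP+ DCs and 20.9 CPM in BFP- DCs, with an interval of -0.02 to 0.70 on the log2 scale. Itgam had 0 UMIs in BFP+ DCs, which allows up to 0.972 CPM, against 37 UMIs or 2.14 CPM in BFP- DCs, so it was at least 2.20-fold lower (3 UMIs over the BFP+ sum).

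These calls depended on how cells were assigned. With HTODemux singlets, an assignment that gave the untreated BFP+ label to 2417 barcodes of which 588 carried mostly that tag and 278 mostly the BFP- tag, the Itgax log2 ratio was -0.78, the Itgb2 ratio -0.34 and the Itgb7 ratio 0.54. Thinned to equal depth the Itgax ratio was -0.64. Itgax was lower in untreated BFP+ DCs under every setting tried, while the direction of Itgb7 turned. In ungated DCs alone Itgax had 12.1 CPM in BFP+ DCs and 27.8 CPM in BFP- DCs, a log2 ratio of -1.20 (-1.75 to -0.69), and was the 1 chain called lower of 4 measured, where 4.6% of all genes were called lower. Itgb2 had a log2 ratio of -0.68 (-1.28 to -0.13) in ungated DCs and was not called because its higher sum, 17.1 CPM, was under the minimum.

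B cell transcripts differed between the untreated populations in the same direction as Itgb2. The B cell list, with 8 of 8 markers detected in both, summed to 30.8 CPM in BFP+ DCs of the untreated capture and 87.9 CPM in BFP- DCs of the untreated capture. The T, NK and ILC list summed to 200.5 CPM with Gzma at 0 in BFP+ DCs and to 205 CPM with all 12 detected in BFP- DCs; its Cd3e stood at 1.94 and 6.89 CPM. Their part in the Itgax, Itgb2 and Itgb7 values was not tested. The untreated barcodes that passed the B gate and no other held 0 Itgax UMIs, which allows up to 11.4 CPM (3 UMIs over their sum).

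In the MC903 capture no chain was called apart by the reporter: 0 of 3 measured, where 1.23% of all genes were called higher and 1.55% lower. Itga4 had 373 CPM in BFP+ DCs and 363 CPM in BFP- DCs, a log2 ratio of 0.04 (-0.01 to 0.08). Itgb1 had 241 CPM in BFP+ DCs and 250.03 CPM in BFP- DCs, and Itgav 26.9 CPM in BFP+ DCs and 25.9 CPM in BFP- DCs. The intervals of these ratios exclude a 1.5-fold difference in either direction. Itgax, under 20 CPM here, had 4.64 CPM in BFP+ DCs and 9.19 CPM in BFP- DCs, a log2 ratio of -0.98 (-1.37 to -0.61), and -0.84 (-1.29 to -0.40) in ungated DCs alone, where 0 of 3 measured chains were apart and 0.841% of all genes were called higher and 0.757% lower. After thinning it was seen in 0.774% of MC903 BFP+ DCs against 2.00% of MC903 BFP- DCs, and in 3.56% and 5.90% before thinning.

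Itgb7 was on the other side in the MC903 capture when populations were set by the dominant hashtag. It had 13.5 CPM in BFP+ DCs and 9.65 CPM in BFP- DCs, a log2 ratio of 0.48 (0.22 to 0.74), and in ungated DCs 13.4 CPM against 8.30 CPM, a log2 ratio of 0.69 (0.41 to 0.97). Its reporter ratios thus had opposite signs in the captures under that assignment only. With HTODemux singlets the untreated ratio was positive, like the MC903 ratios given here. The difference between captures was not tested. Itgb2 had 8.78 CPM in BFP+ DCs and 8.24 CPM in BFP- DCs, with an interval of -0.21 to 0.39 on the log2 scale. Itgal had 20 UMIs in BFP+ DCs, 9 of them in 1 barcode, and 25 UMIs in BFP- DCs.

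**Figure D3:**
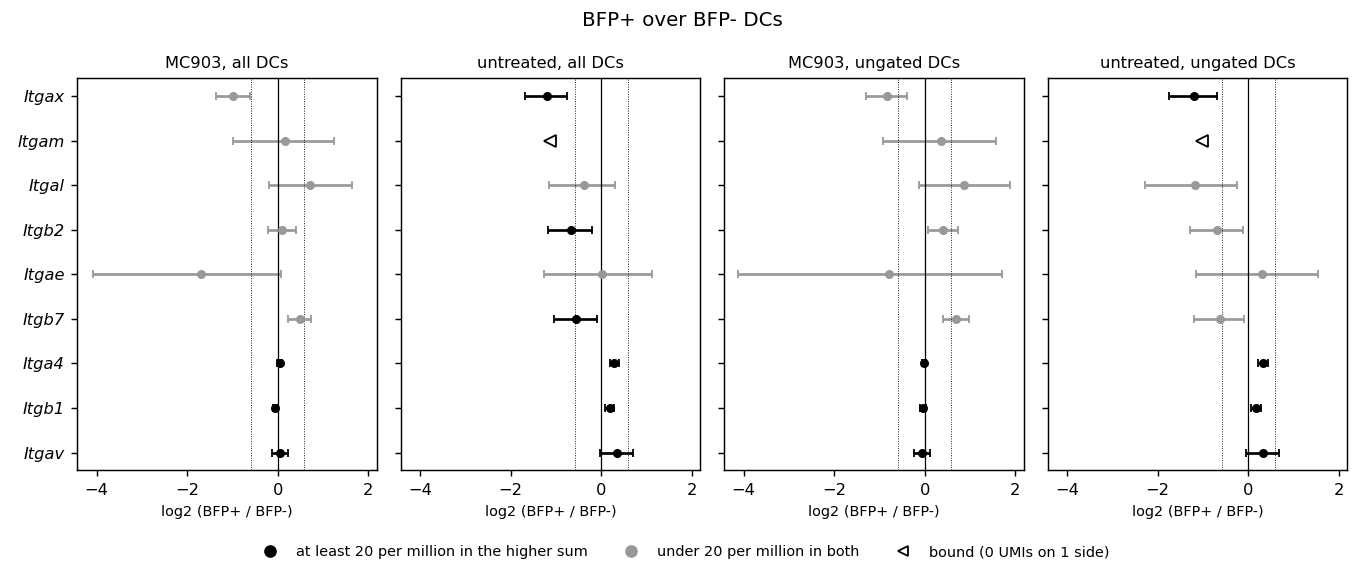
Log2 ratio of BFP+ over BFP- DCs for each chain, in all DCs and in ungated DCs of each capture; bars are exact 95% intervals, grey points are under 20 CPM in both sums, an open triangle is a bound where one sum is 0, and dotted lines mark 1.5-fold. Itgax lies left of 0 in all 4 panels, and Itga4, Itgb1 and Itgav lie between the dotted lines except where their bars cross them.

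**Figure D4:**
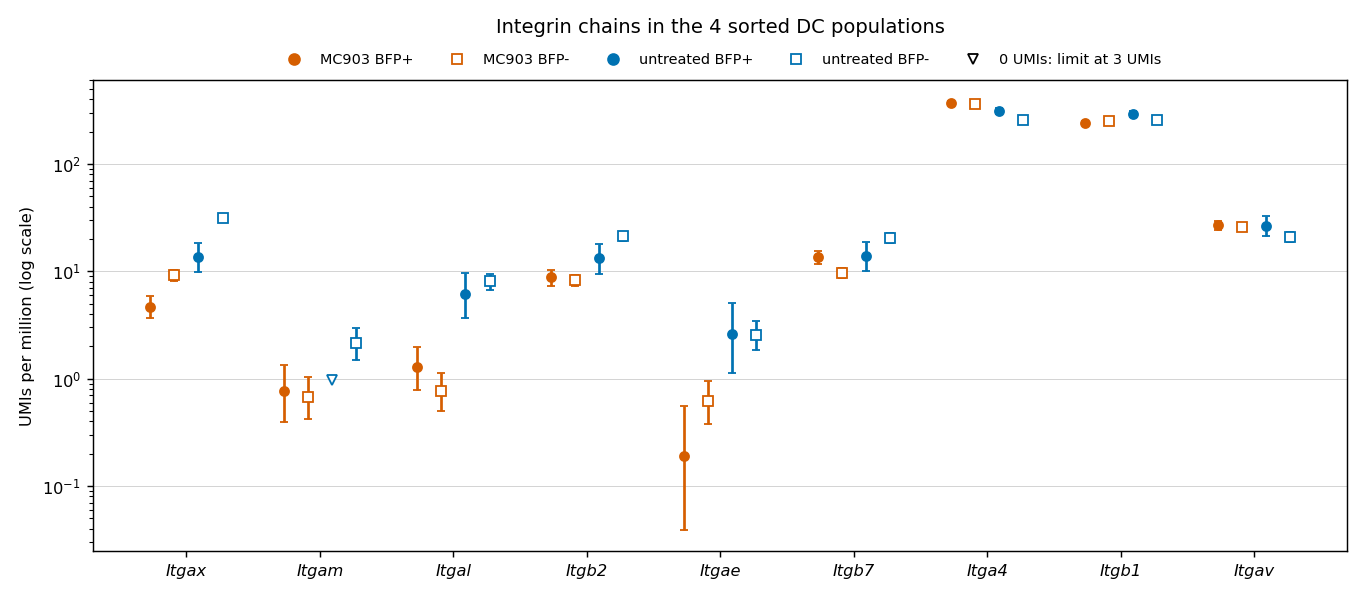
Level of each chain (CPM, log scale) in the BFP+ and BFP- DCs of the MC903 and untreated captures, with exact 95% Poisson intervals. The lowest Itgax level is that of MC903 BFP+ DCs, 4.64 CPM, and the highest that of untreated BFP- DCs, 31.3 CPM.

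The treatment comparison set MC903 against untreated DCs of the same reporter state, that is 1 capture against the other. In BFP- DCs Itgax, Itgb2 and Itgb7 were lower after MC903, and Itga4 was higher by less than 1.5-fold. Itgax had 9.19 CPM in MC903 BFP- DCs and 31.3 CPM in BFP- DCs of the untreated capture, a log2 ratio of -1.77 (-1.98 to -1.56). Itgb2 had 8.24 CPM and 21.2 CPM, a log2 ratio of -1.36 (-1.60 to -1.13), and Itgb7 had 9.65 CPM and 20.4 CPM, a log2 ratio of -1.08 (-1.31 to -0.86). They were 3 lower and 0 higher of 6 measured, where 5.65% of all genes were called lower and 4.76% higher, and Itgax, Itgb2 and Itgb7 reached 20 CPM only in the untreated capture.

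Itga4 had 363 CPM in MC903 BFP- DCs and 256 CPM in BFP- DCs of the untreated capture, a log2 ratio of 0.50 (0.45 to 0.55). Under trimmed-mean scaling, which moved the median of all genes in this comparison to 0.12, it was 0.65 and called higher, while Itgb7 remained lower at -0.93. That scaling also moved the share of higher genes among those apart from 45.7% to 69.4% in BFP- DCs and from 44.9% to 66.9% in BFP+ DCs. Itgb1 had 250.03 CPM in MC903 BFP- DCs and 256 CPM in BFP- DCs of the untreated capture, a log2 ratio of -0.03 that became 0.11 under that scaling. Itgav had 25.9 CPM and 20.9 CPM, a log2 ratio of 0.31 (0.13 to 0.49). Itga4, Itgb1 and Itgav were thus not lower alongside Itgax and Itgb2 in this comparison.

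The sparse chains were lower too, below the level needed for a call. Itgal had 0.771 CPM in MC903 BFP- DCs and 8.05 CPM in BFP- DCs of the untreated capture, a log2 ratio of -3.38 (-4.06 to -2.76). Itgae had 0.617 CPM and 2.55 CPM (-2.89 to -1.25), and Itgam 0.679 CPM and 2.14 CPM (-2.49 to -0.86). Itgal is a chain of lymphocytes as well, and T, NK and ILC barcodes held 118 CPM of it in the MC903 capture and 139 CPM in the untreated capture. B cell transcripts were lower in MC903 BFP- DCs: the B cell list summed to 20.05 CPM in MC903 BFP- DCs and 87.9 CPM in BFP- DCs of the untreated capture, and Cd3e stood at 1.02 and 6.89 CPM. The whole T, NK and ILC list summed to 178 CPM, with Klrb1c at 0, and to 205 CPM, with all 12 detected. In BFP+ DCs that list was at 216 CPM after MC903 and 200.5 CPM untreated. The part of these transcripts in the Itgal, Itgae, Itgb2 and Itgb7 values was not tested. For Itgax, T, NK and ILC barcodes held 3.99 CPM in the MC903 capture and 13.7 CPM in the untreated capture. In the same captures BFP- DCs held 9.19 and 31.3 CPM of Itgax, and BFP+ DCs 4.64 and 13.6 CPM. Those barcodes thus stood below BFP- DCs but near BFP+ DCs. The part of transcripts from other cells in the Itgax values was not tested.

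In BFP+ DCs no chain was called apart by treatment, 0 of 3 measured, where 3.41% of all genes were called higher and 4.18% lower. Itgax had 4.64 CPM in MC903 BFP+ DCs and 13.6 CPM in BFP+ DCs of the untreated capture, under the 20 CPM minimum, with a log2 ratio of -1.55 (-2.12 to -0.97). Itgb2 had 8.78 CPM and 13.3 CPM, a log2 ratio of -0.60 (-1.11 to -0.06). Itgal had 1.27 CPM and 6.15 CPM, a log2 ratio of -2.27 (-3.25 to -1.29). These 3 chains had the direction seen in BFP- DCs. Itgb7 was level at 13.5 CPM in MC903 BFP+ DCs and 13.9 CPM in BFP+ DCs of the untreated capture (-0.52 to 0.46), but its ratio was -0.65 with HTODemux singlets and -0.72 at thinned depth. Itga4 had 373 CPM and 313 CPM, a log2 ratio of 0.25 (0.15 to 0.35), and Itgb1 241 CPM and 292 CPM, a log2 ratio of -0.27 (-0.38 to -0.17). The 2 treatment comparisons share no cells, but each sets the same pair of captures against each other.

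**Figure D5:**
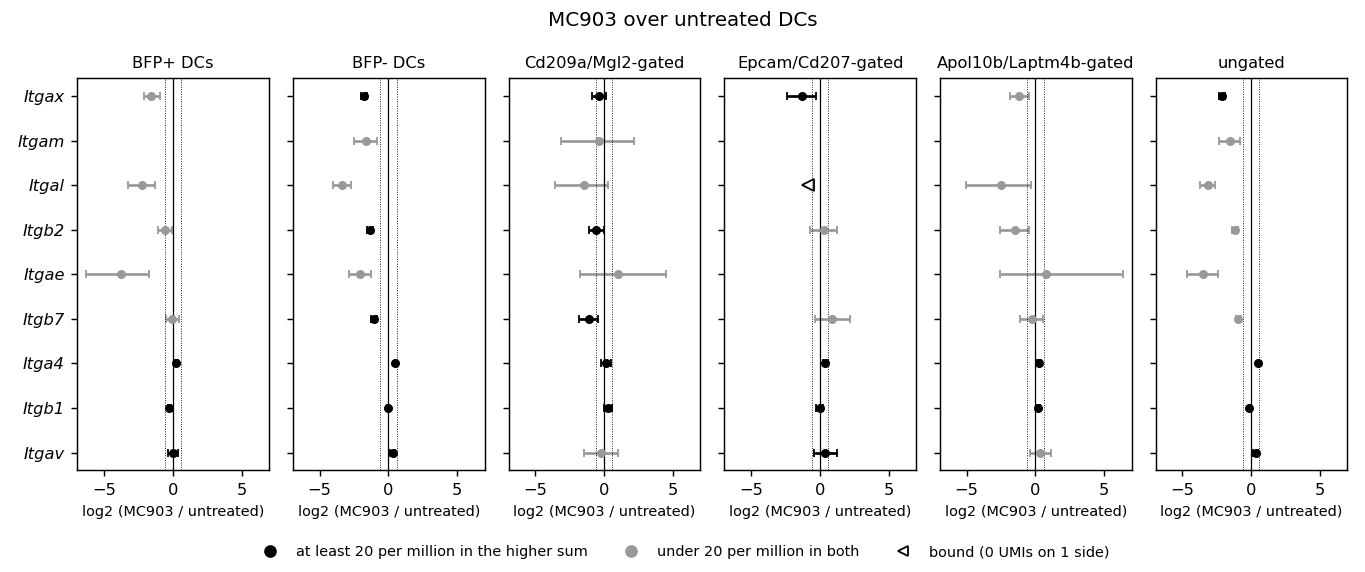
Log2 ratio of MC903 over untreated DCs for each chain, by reporter state and by DC type; bars are exact 95% intervals, grey points are under 20 CPM in both sums, open triangles are bounds and dotted lines mark 1.5-fold. Itgax lies left of 0 in every panel, closest to 0 under the Cd209a/Mgl2 gate at -0.38.

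Within DC types the Itgax difference by treatment was uneven. In ungated DCs Itgax had 5.57 CPM in the MC903 capture and 24.5 CPM in the untreated capture, a log2 ratio of -2.14 (-2.36 to -1.91), as the 1 chain apart of 4 measured, where 4.98% of all genes were called lower and 4.62% higher. Itgb2 and Itgb7 stayed under the 20 CPM minimum there, with log2 ratios of -1.17 (-1.40 to -0.95) and -0.92 (-1.12 to -0.72). Under the Epcam/Cd207 gate Itgax had 9.74 CPM and 23.8 CPM, a log2 ratio of -1.29 (-2.38 to -0.29), again the 1 chain apart of 4, where 6.59% of all genes were called higher and 9.1% lower. Under the Apol10b/Laptm4b gate it had 8.74 CPM and 19.7 CPM, a log2 ratio of -1.17 (-1.88 to -0.46), and neither of the 2 chains measured was apart, where 7.27% of all genes were called higher and 7.78% lower. Under the Cd209a/Mgl2 gate, where Itgax is highest, it had 81.4 CPM and 106 CPM, and the interval of -0.88 to 0.12 reaches 0. The interval of the ungated ratio lies wholly below that of the Cd209a/Mgl2 ratio. The difference between them was not tested over samples. A gate needed at least 3 UMIs, and ungated DCs had a median of 9765 UMIs in the MC903 capture and 2571 in the untreated capture. From the Cd209a/Mgl2 share to 2 times that share stood 319 untreated DCs, but only 179 passed that gate at any share. In the MC903 capture these counts were 74 and 51. The part of gating depth in the ratios by type was not tested.

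Itgb7 was the chain apart under the Cd209a/Mgl2 gate, at 38.7 CPM in the MC903 capture and 84.4 CPM in the untreated capture, a log2 ratio of -1.13 (-1.81 to -0.47), 1 lower of 5 measured, where 18.2% of all genes were called lower and 14.8% higher. Itgb2 there had 64.0 CPM in the MC903 capture and was 1.48-fold higher in the untreated capture, a log2 ratio of -0.57 (-1.13 to -0.02). In ungated DCs Itga4 had 380.5 CPM in the MC903 capture and 265 CPM in the untreated capture, a log2 ratio of 0.52 (0.48 to 0.57), and under the Epcam/Cd207 gate 352 CPM and 265 CPM, a log2 ratio of 0.41 (0.20 to 0.61). Itga4 was therefore higher without a call in both, and under the Apol10b/Laptm4b gate too (0.11 to 0.42).

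The terciles gave the treatment difference at like rank of Ccr7 and Fscn1. For Itgax the log2 ratio of MC903 over untreated was -1.78 in the low, -1.88 in the middle and -2.05 in the high tercile. For Itga4 it was 0.51, 0.57 and 0.47. For both chains the ratio was of like size at each rank. For Itgb2 it was -1.62, -1.14 and -0.62, and for Itgb7 -1.46, -0.58 and -0.40, closer to 0 toward the high tercile. In the low tercile Itgax, Itgb2 and Itgb7 were called lower, 3 of 5 measured, where 9.92% of all genes were called lower and 4.82% higher. In the middle 0 of 3 were apart, where 5.25% were called lower, and in the high tercile 1 of 4, Itgax, where 5.06% were called higher and 3.94% lower.

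Shares of barcodes at 2000 UMIs told the same direction for the 2 extreme chains. Itgax was seen in 1.25% of ungated MC903 DCs and 4.34% of ungated untreated DCs, although the deeper MC903 barcodes had 4.57% and the untreated 7.09% before thinning. Itga4 was seen in 48.3% of ungated MC903 DCs and 37.0% of ungated untreated DCs, and in 89.8% and 47.8% before thinning. Much of the unthinned Itga4 gap was thus not present at equal depth. The exact intervals of the thinned shares, 46.8% to 49.9% in MC903 DCs and 35.6% to 38.4% in untreated DCs, did not overlap. These intervals take the barcodes of a capture as separate draws and hold no variation between mice or captures. The remaining difference therefore has no replicate check. Thinning left out 50 shallower barcodes of ungated MC903 DCs and 1136 of ungated untreated DCs.

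The other integrin genes and partners were read from 4 lists. Of 19 genes listed as other integrin chains, 3 were measured by treatment in each reporter state: 1 higher and 1 lower, against 3.41% and 4.18% of all genes in BFP+ DCs and 4.76% and 5.65% in BFP- DCs. Itga6, the laminin receptor chain, had 58.7 CPM in MC903 BFP+ DCs and 37.2 CPM in BFP+ DCs of the untreated capture, a log2 ratio of 0.66 (0.37 to 0.95). In BFP- DCs it had 42.4 CPM after MC903 and 16.7 CPM untreated, a log2 ratio of 1.34 (1.16 to 1.53). Itgb8, the beta chain that with Itgav activates latent TGF-beta, had 1.08 CPM in MC903 BFP+ DCs and 21.4 CPM in BFP+ DCs of the untreated capture, a log2 ratio of -4.30 (-5.17 to -3.52). In BFP- DCs it had 3.86 CPM after MC903 and 31.6 CPM untreated, a log2 ratio of -3.03 (-3.32 to -2.75). Itgav, its partner, was within 1.5-fold in both reporter states, so the 2 chains of this receptor did not move together. The third measured entry of this list, Itgb1bp1, encodes a cytoplasmic adaptor and not a chain.

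Of 32 genes of integrin activation and adaptors 18 were measured, with 1 higher and 1 lower after MC903 in each reporter state, near the shares over all genes (3.41% and 4.18% in BFP+ DCs, 4.76% and 5.65% in BFP- DCs). Flna, which ties integrin tails to actin, had 180 CPM in MC903 BFP+ DCs and 114 CPM in BFP+ DCs of the untreated capture, and 187 CPM in MC903 BFP- DCs and 112 CPM in BFP- DCs of the untreated capture. Rassf5, a RAP1 effector in integrin activation, had log2 ratios of -0.65 in BFP+ DCs and -0.63 in BFP- DCs. No other measured gene of this list was apart. By reporter, 1 of the 18 was lower in the MC903 capture, where 1.55% of all genes were, and none was apart in the untreated capture, where 3.04% were higher and 4.32% lower.

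Of 24 integrin ligands 6 were measured by treatment, with 1 higher and 3 lower in BFP+ DCs and 1 higher and 2 lower in BFP- DCs. Over all genes 3.41% were called higher and 4.18% lower in BFP+ DCs, and 4.76% and 5.65% in BFP- DCs. Thy1, which can bind Mac-1 and beta 3 integrins, had 72.6 CPM in MC903 BFP+ DCs and 13.3 CPM in BFP+ DCs of the untreated capture, and 43.3 CPM in MC903 BFP- DCs and 9.61 CPM in BFP- DCs of the untreated capture. Mfge8, a bridge from dying cells to Itgav integrins and also a gene of the Epcam/Cd207 gate, had 41.2 CPM in MC903 BFP+ DCs and 125 CPM in BFP+ DCs of the untreated capture, and 107 CPM in MC903 BFP- DCs and 283 CPM in BFP- DCs of the untreated capture. It was also lower by reporter, with log2 ratios of BFP+ over BFP- DCs of -1.37 in the MC903 capture and -1.18 in the untreated capture. Vcam1, the ligand of Itga4 and Itgb1, was lower after MC903, with log2 ratios of -0.64 in BFP+ DCs and -0.98 in BFP- DCs. F11r, a ligand of Itgal and Itgb2, was lower in BFP+ DCs, with log2 ratios of -0.73 in the MC903 capture and -0.61 in the untreated capture.

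Of 19 other migration and adhesion molecules 12 were measured. By reporter 1 was higher and 2 lower in the MC903 capture, and 1 higher and 3 lower in the untreated capture. Over all genes 1.23% were higher and 1.55% lower in the MC903 capture, and 3.04% and 4.32% in the untreated capture. L1cam, an adhesion molecule that can bind integrins, was higher in BFP+ DCs, with log2 ratios of 0.59 in the MC903 capture and 1.47 in the untreated capture. Cd9, a tetraspanin that associates with integrins, was lower in BFP+ DCs, with log2 ratios of -1.01 in the MC903 capture and -0.64 in the untreated capture. By treatment 2 were higher and 1 lower in BFP+ DCs, and 2 higher and 0 lower in BFP- DCs, against 3.41% and 4.18% of all genes in BFP+ DCs and 4.76% and 5.65% in BFP- DCs.

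The likeness of patterns was described over the 8 sums of a DC type in a capture that had at least 50 barcodes, as the Pearson correlation of log2(CPM + 10) among 3414 genes. These points share libraries and the cells of 2 captures, so the values are descriptive. Ptprc (CD45) was most like Itgax, with r = 0.993 over 8 sums. Hsp90b1, a chaperone of the endoplasmic reticulum, was most like Itgb2 (r = 0.997 over 8 sums), Acer3 most like Itgb7 (0.988) and Lactb most like Itga4 (0.979). Among the chains themselves Itgb2 was close to Itgb7 (0.970) and to Itgax (0.946). Itga4 ran opposite to Itgax (-0.942), and to its partner Itgb1 it stood at 0.579. Partners of 1 receptor therefore did not always have the most similar patterns.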

How the data were processed

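The authors deposited, for each capture, a matrix of UMI counts per gene and barcode and the hashtag counts of the same barcodes; per the file headers the matrix came from Cell Ranger 3.1.0, on GRCm38 (mm10) per the submitters' processing notes. Counts were used as deposited, and library preparation followed the 10x 3′ v3 kit, per the labels. The minimum was 500 genes per barcode and the mitochondrial maximum 10%. Barcodes with at least 3 UMIs from at least 2 genes of a list, making up 0.1% of their UMIs, passed a gate; DC types needed 0.05%. Of the kept barcodes 868 in the MC903 capture and 1891 in the untreated capture passed a gate of another lineage and were left out, 584 and 1689 of them with DC markers too. A barcode belonged to a population if at least 80% of at least 10 hashtag counts came from 1 tag, which also leaves out barcodes with both tags; no doublet caller was run.

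UMIs were summed per group and divided by the group's total. Log2 ratios have exact 95% intervals from the Poisson pair, which cover counting error only, and a sum of 0 was bounded at 3 UMIs. The ratio step was tested on simulated data. The 9 genes were named in every comparison; from the 4 lists, genes apart the same way in both captures or both reporter states were named. The members, the lists and the Apol10b/Laptm4b gate were chosen with earlier results of these data known. The planned design had no replicates, so no test across samples was run. HTODemux calls came from Seurat 5.3.0 (quantile 0.99), trimmed-mean factors from edgeR 4.0.16, and the rest from Python 3.11.15 with numpy 2.4.6, scipy 1.17.1 and pandas 2.3.3. Gene positions are those of GENCODE M21, and promoter sequences are from RefSeq (GRCm38.p6). The sources used here do not say how many mice made up a pool.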

Additional observations from a re-analysis of the deposited data

How the results depend on the processing

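The calls on the 9 chains were recomputed under 11 other settings, and of 840 values none changed the sign of a call; 192 of 223 calls were kept, 31 were lost and 37 were gained. In the untreated capture the reporter count of 2 chains became 1 with HTODemux singlets, with gate shares 2 times as high, with no marker gate and in ungated DCs alone. The reporter count of 0 in the MC903 capture became 3 without the CPM minimum. By treatment, the count of 0 in BFP+ DCs became 1 with HTODemux singlets, 1 at 2000 UMIs per barcode, 4 without the CPM minimum and 2 with no marker gate. The count of 3 in BFP- DCs became 6 without the CPM minimum and 1 in ungated DCs alone. Over the DC types the count of 6 in MC903 DCs became 15 without the CPM minimum, while the 15 in untreated DCs ranged from 11 to 22. The cause was not tested, except that dropping the minimum lets more genes be called and that Itgb2 in ungated untreated DCs kept its ratio and fell under the minimum. Trimmed-mean scaling moved the share of higher genes among those apart from 64.0% to 33.7% under the Epcam/Cd207 gate, from 44.6% to 57.0% under the Apol10b/Laptm4b gate and from 41.3% to 54.2% by reporter in untreated DCs. In MC903 DCs it moved it from 65.0% to 31.5% under the Epcam/Cd207 gate and from 57.4% to 42.1% under the Cd209a/Mgl2 gate. Depth limits Itgam, Itgal and Itgae most, with 24 to 206 UMIs over all DCs of a capture. No paired analysis was possible because each population is 1 pool with 1 hashtag.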
